A study of Mus musculus with 9 samples.

Results

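Collagens and laminins are the chains from which most of the extracellular scaffold of blood vessels, meninges, nerve roots and muscle is built. The genes described here are those whose symbol in the platform annotation reads Col, a number, a and a number, or begins with Lama, Lamb or Lamc and a number. There were 46 of them, 36 collagens and 10 laminins, among 12394 genes named on the array. Each gene was read by the probe set with the highest mean signal among those that named it alone. For 24 of them, 19 collagens and 5 laminins, that probe set lay in the brighter 50% of the array and could be tested. The other 22 were too dim.

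Collagen chains wind together into a helix. The fibrillar types (I, III, V and XI) form the cables of connective tissue, type IV forms the sheet-like network of basement membranes, type VI forms beaded filaments around cells, and the fibril-associated types decorate the cables. A laminin is assembled from an alpha, a beta and a gamma chain and lines every basement membrane, where integrins and dystroglycan on the cell surface hold it. In the spinal cord fibrillar collagens are known mainly from meningeal and perivascular fibroblasts, and type IV collagen and laminins from the basement membrane of vessels and from the pial surface.

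Spinal muscular atrophy (SMA) is a motor neuron disease of low SMN protein. The 9 arrays came from 9 mice, and the material was labelled as motor neurons laser-cut from the lumbar cord. The 3 groups were wild-type mice given vehicle, SMA mice given vehicle, and SMA mice given a transplant described in the labels as NSC, taken here as neural stem cells, with 3 arrays in each. All animals were operated on at postnatal day 1 and killed at day 13. All groups therefore share the operation, and no source used here gives the alleles or strain of the SMA mice. About 100 cells were collected per cap from perfusion-fixed sections, the cells of 1 animal went onto 1 array, and the RNA was amplified in 2 rounds. The p-values thus measure the spread between these animals.

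The arrays were alike in overall brightness, with median signals of 31.4 to 35.8 and total signals of 3264246 to 3508703. The array labelled transplanted SMA 1 had a hybridisation-control signal of 201.9 against 170.5 to 299.7 over all 9 arrays. It had the lowest actin 3'/5' ratio, 2.482 against up to 4.318. Its Gapdh 3'/5' ratio, 3.516, lay inside the range of 3.194 to 4.257 over all arrays. Its 18S ribosomal RNA signal was 1831.9, below wild type 3 (2939.6) and SMA 3 (2764.7) and above the other 6 arrays (839.2 to 1389.4). Of the transcripts that define motor neurons, several were dim. The vesicular acetylcholine transporter Slc18a3 read 2.1 to 41.7, the choline transporter Slc5a7 3.0 to 11.8, and the transcription factors Isl1 3.8 to 16.7 and Mnx1 4.1 to 16.3. The related factor Isl2 was bright enough to test and read 26.4 to 119.8, highest on transplanted SMA 1. The neurofilament gene Nefl read 559.1 to 1458 and the myelin gene Mbp 7831.6 to 13348.6, so RNA of other cells was on every array. SMA 1 and SMA 2 also stood apart in skeletal muscle transcripts, with the muscle actin gene Acta1 at 1288.7 and 1413.7 against 1.5 to 27.1 on the other 7 arrays. In such samples fewer cells of a type and less RNA per cell cannot be told apart.

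Collagen and laminin signals were highest on a single array. Transplanted SMA 1 gave the highest of the 9 signals for 20 of the 24 tested members, or 83.3%, while it was the highest array for 13.3% of all 11313 probe sets tested. These were all 5 tested laminins and 15 of the 19 tested collagens. The brightness filter used the mean over all 9 arrays, this one included, so a member near its border could pass through a high signal here. Of the 22 dim members, 4 were highest on this array. Over all 46 members, dim ones included, this array was the highest for 24 (52.2%). Within the transplanted group it was the highest array for 21 of 24 members, against 34.2% of all probe sets, and for 15 members it read at least 2 times the higher of the other two transplanted arrays. That ratio ran from 0.575 for Col11a2 to 7.63 for Col5a2. The 4 members not led by this array were Col9a3, Col9a1, Col4a5 and Col11a2.

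**Figure D1:**
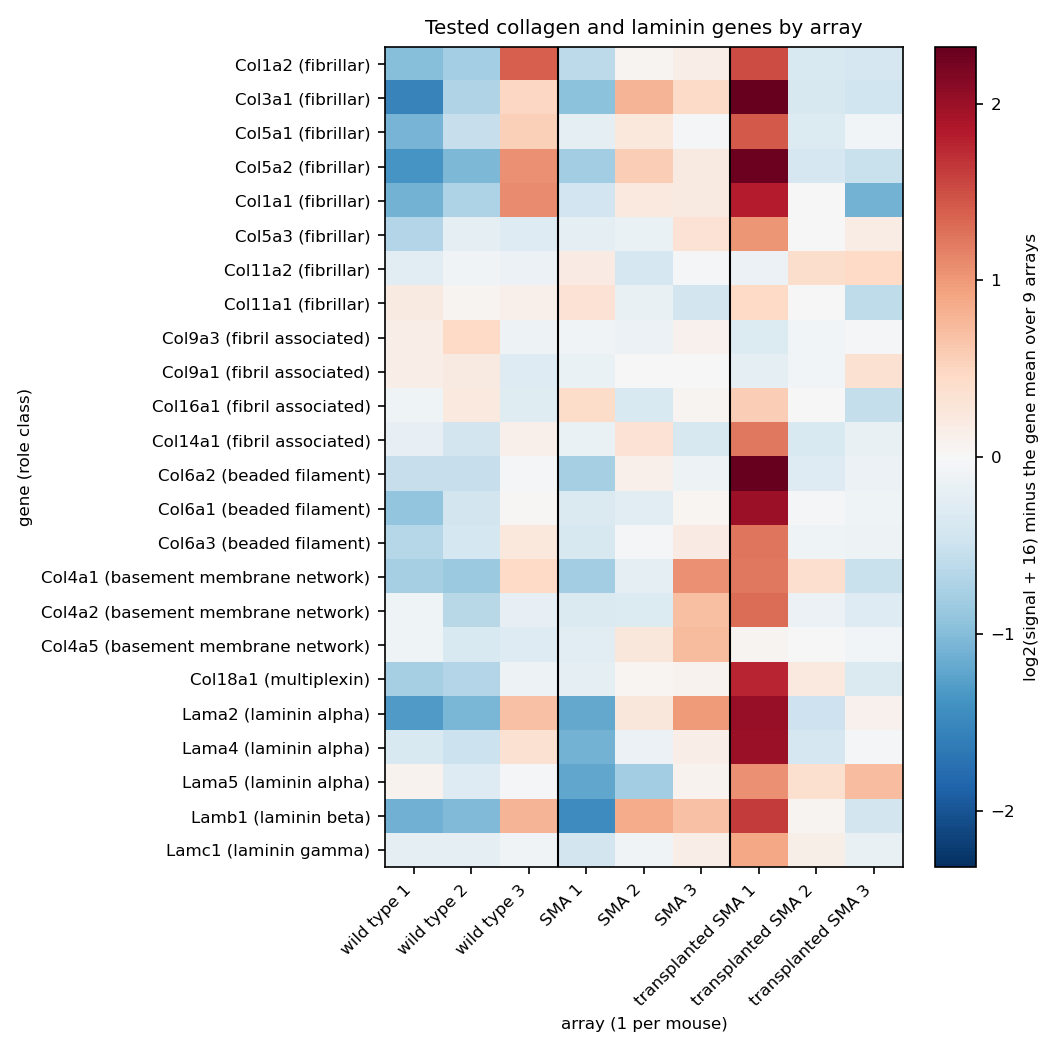
Signals of the 24 tested collagen and laminin genes on the 9 arrays, each cell coloured by the difference of log2(signal + 16) from that gene's mean over all arrays, with genes grouped by structural class. The column of transplanted SMA 1 is the highest for 20 of the 24 genes.

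The same array profile can be put as a median deviation, that is, the median over genes of log2(signal + 16) minus the gene's own mean over the 9 arrays. For the 24 members it was -0.60, -0.46 and 0.07 on the wild-type arrays, -0.35, -0.01 and 0.15 on the SMA arrays, and 1.27, -0.05 and -0.15 on the transplanted arrays. The other two transplanted arrays therefore lay inside the range of the SMA arrays. For all tested probe sets the same median stayed between -0.02 and 0.03. Of the remaining arrays, wild type 3 was the highest wild-type array for 15 of the 24 members, against 34.7% of all probe sets, and SMA 1 was the lowest SMA array for 19, against 32.2%. The 3 arrays with the highest member medians, transplanted SMA 1, SMA 3 and wild type 3, were also the 3 with the highest 18S ribosomal RNA signal, whose part in the profile was not tested.

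The promoters of 5 members are shown, for a chain each of the fibrillar types I and III, the type IV pair that is transcribed from one shared region, and the laminin chain with the smallest unadjusted p-value of all members. Each is the 300-base window from 250 bases before to 50 bases after the annotated start, written 5' to 3' on the gene's own strand, from RefSeq on mouse GRCm38.p6. Capitals mark the TATA-box letters TATAAA, the CCAAT of a CAAT box and the GC-box letters GGGCGG, each on either strand. These motifs do not overlap one another in the windows shown.
Col1a2, chr6:4505368-4505667, plus strand: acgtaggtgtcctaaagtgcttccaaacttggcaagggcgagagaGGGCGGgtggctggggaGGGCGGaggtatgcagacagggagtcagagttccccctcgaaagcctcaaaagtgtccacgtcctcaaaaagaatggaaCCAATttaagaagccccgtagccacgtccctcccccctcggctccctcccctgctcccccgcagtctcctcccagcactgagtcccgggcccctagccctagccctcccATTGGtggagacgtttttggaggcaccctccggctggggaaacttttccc
Col3a1, chr1:45311288-45311587, plus strand: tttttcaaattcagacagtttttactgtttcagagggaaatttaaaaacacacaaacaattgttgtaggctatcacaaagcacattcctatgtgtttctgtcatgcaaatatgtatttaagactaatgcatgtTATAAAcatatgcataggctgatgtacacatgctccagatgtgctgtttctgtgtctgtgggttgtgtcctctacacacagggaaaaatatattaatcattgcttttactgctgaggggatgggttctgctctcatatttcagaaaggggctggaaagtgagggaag
Col4a1, chr8:11312777-11313076, minus strand: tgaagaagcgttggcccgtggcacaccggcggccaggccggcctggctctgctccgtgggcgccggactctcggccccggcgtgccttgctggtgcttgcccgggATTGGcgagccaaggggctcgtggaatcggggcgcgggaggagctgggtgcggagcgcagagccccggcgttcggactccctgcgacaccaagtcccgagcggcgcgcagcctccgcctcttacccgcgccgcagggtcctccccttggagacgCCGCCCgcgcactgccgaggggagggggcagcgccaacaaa
Col4a2, chr8:11312555-11312854, plus strand: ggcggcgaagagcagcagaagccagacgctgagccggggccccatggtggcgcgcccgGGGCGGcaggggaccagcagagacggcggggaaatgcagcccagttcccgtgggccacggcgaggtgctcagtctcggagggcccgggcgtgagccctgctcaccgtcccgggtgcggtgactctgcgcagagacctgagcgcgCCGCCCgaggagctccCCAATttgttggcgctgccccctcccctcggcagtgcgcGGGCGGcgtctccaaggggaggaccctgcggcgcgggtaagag
Lama5, chr2:180225810-180226109, minus strand: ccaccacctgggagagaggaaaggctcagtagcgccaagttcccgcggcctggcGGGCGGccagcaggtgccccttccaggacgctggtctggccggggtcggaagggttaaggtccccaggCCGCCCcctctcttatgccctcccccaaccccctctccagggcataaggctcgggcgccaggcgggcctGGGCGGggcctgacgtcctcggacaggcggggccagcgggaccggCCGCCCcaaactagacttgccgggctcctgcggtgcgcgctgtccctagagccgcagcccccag

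The windows differ in base composition. Col3a1 had a GC content of 37.7% and a TATAAA 117 bases before the start, whereas Col1a2 had 61.0% with CCAAT 109 bases before the start and GGGCGG at 205 and 188 bases before it. Col4a1, Col4a2 and Lama5 had 74.0%, 73.7% and 72.7%. The annotated starts of Col4a1 and Col4a2 lie 21 bases apart, head to head, and their windows share 78 bases, so that both hold the same GGGCGG match just inside the start, read from opposite strands. The Lama5 window held 4 matches to the GC-box letters and no match to the other motifs. On either strand the GC-box letters were found in 20 of the 36 windows of 32 members (55.6%) and in 35.7% of all 32851 windows. CCAAT was found in 13 of 36 against 37.4%, and TATAAA in 5 of 36 against 13.6%. A match is a string of letters here, and binding was not measured.

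Among the fibrillar chains, 8 of 9 were tested and 7 of those were highest on transplanted SMA 1. Col1a2, a chain of type I collagen, read 533.1, 618.9 and 2851 in the wild type, 695.7, 1129.8 and 1190.4 in SMA mice, and 3107.4, 837 and 818.8 in transplanted mice. Its highest 2 arrays were thus a transplanted and a wild-type array, and the groups overlapped. Its partner chain Col1a1 read 28.6, 41.8 and 185.6 in the wild type, 53.3, 95.1 and 93.6 in SMA mice, and 318.1, 79.7 and 28.2 in transplanted mice, with the same 2 arrays on top. The lowest of its 9 signals was also from the transplanted group.

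Col3a1, the type III chain of elastic tissues and vessel walls, read 155.6, 293.5 and 690.3 in the wild type, 245.4, 854 and 666.5 in SMA mice, and 2500.3, 373.6 and 349.1 in transplanted mice. The highest of these was 2.93 times the next, and all 3 groups overlapped. Col5a2, a type V chain that helps to start fibrils, lies next to Col3a1 among protein-coding genes and read 26.6, 37.7 and 212.4, then 47.2, 147 and 111.6, then 519.3, 68.1 and 60.5 in the same order of groups. Both genes had their maximum on transplanted SMA 1 and their minimum on wild type 1. Col5a1, the other main type V chain, read 38.1, 63 and 152.4 in the wild type, 82.8, 119.7 and 96.3 in SMA mice, and 288.8, 75.5 and 93.8 in transplanted mice. Here again a single transplanted array lay above the rest.

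The remaining fibrillar chains varied less. Col5a3 read 24.3, 39.9 and 36.5 in the wild type, 38.9, 41.9 and 65.8 in SMA mice, and 115.3, 49 and 57 in transplanted mice. Every transplanted array thus lay above every wild-type array. Its second, dimmer probe set read 1.0 to 12.1 in the wild type, 5.3 to 14.8 in SMA mice and 1.6 to 4.4 in transplanted mice. Col11a1, a type XI chain of cartilage fibrils, read 42.2, 36.7 and 38.4, then 47.7, 28.5 and 21.6, then 53.7, 33.8 and 17.3. Its highest and its lowest signals were both in the transplanted group. Col11a2 read 32 to 38.7 in the wild type, 27.9 to 50.3 in SMA mice and 36.6 to 63.6 in transplanted mice, with transplanted SMA 3 highest.

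The 3 beaded-filament chains of type VI collagen, made by fibroblasts and by cells of nerve and muscle sheaths, were all tested and all highest on transplanted SMA 1. Col6a2 read 97.1, 97.7 and 144.5 in the wild type, 79.6, 160.9 and 134.2 in SMA mice, and 802.4, 117 and 133.1 in transplanted mice. Col6a1, its neighbour in the genome, read 42.3, 66 and 95.7, then 70.9, 76.5 and 96.7, then 416.9, 91.3 and 86.7. For these genes the leading array was 4.99 and 4.31 times the next of the 9, and the other 8 arrays overlapped across groups. Col6a3 read 45.8 to 98.7 in the wild type, 59.4 to 95.4 in SMA mice, and 213, 75.4 and 73.9 in transplanted mice. The median deviation of the type VI chains on this array was 1.98.

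Of the 6 type IV chains, 3 were tested. Col4a1, which with Col4a2 makes the common basement membrane network, read 208.3, 194.1 and 509.7 in the wild type, 202.7, 310.3 and 777 in SMA mice, and 877.4, 483.1 and 250.8 in transplanted mice. Col4a2 read 120.4, 77.3 and 111.7, then 100.2, 101.1 and 221.5, then 344, 116.9 and 102. Both were highest on transplanted SMA 1 and next highest on SMA 3, and the groups overlapped. Col4a5, a chain of a more restricted network, departed from this and read 55.9, 44 and 46.1 in the wild type, 48, 76.2 and 111.3 in SMA mice, and 64, 60.7 and 57.6 in transplanted mice. Its maximum was on SMA 3, and the 3 transplanted arrays lay close together above all wild-type arrays. A second Col4a5 probe set, just too dim to test, read 44.8, 31.3 and 21.1, then 45, 26 and 33.8, then 46.2, 23.4 and 32.6. That probe set was highest on transplanted SMA 1, and its groups overlapped. Col18a1, a multiplexin of vascular and epithelial basement membranes from which endostatin is cut, read 47.9, 52.2 and 84.6, then 76.7, 96.1 and 98.8, then 355.3, 111.7 and 70. It had 1 transplanted array above the rest, 3.18 times the next, and another below all 3 SMA arrays.

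**Figure D2:**
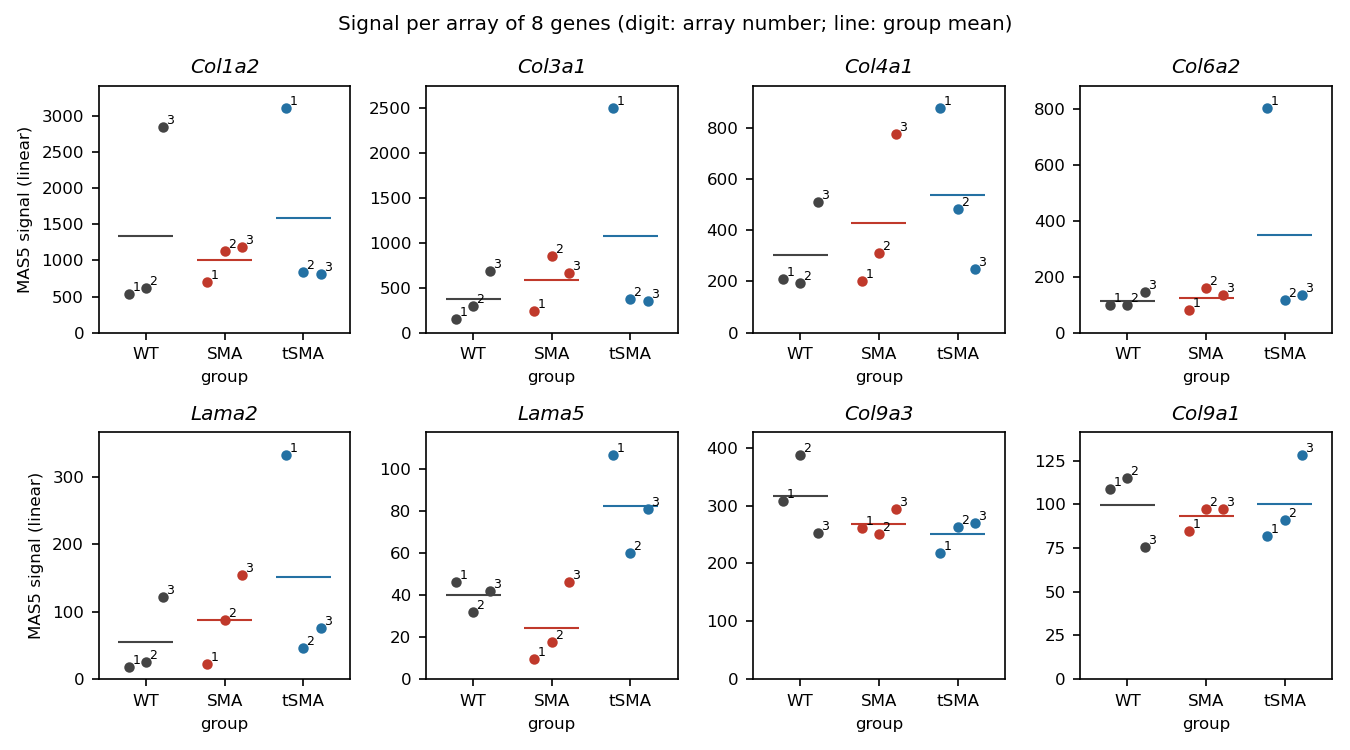
MAS5 signals of 8 genes on a linear axis from 0, 1 numbered point per array and a line at each group mean, for wild type (WT), SMA and transplanted SMA (tSMA). Transplanted SMA 1 is the highest point for Col1a2, Col3a1, Col4a1, Col6a2, Lama2 and Lama5, as for Col6a2 at 802.4 against at most 160.9 elsewhere, and the lowest for Col9a3.

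Of the 9 fibril-associated chains 4 were tested, and 2 of these, Col14a1 and Col16a1, were highest on transplanted SMA 1. Col9a3, a type IX chain, read 308.5, 387.7 and 253.5 in the wild type, 261, 250.4 and 294.7 in SMA mice, and 217.3, 263.6 and 270.7 in transplanted mice. Here transplanted SMA 1 was the lowest array. Col9a1 read 75.6 to 114.9 in the wild type, 85.1 to 97.4 in SMA mice and 81.8 to 128.4 in transplanted mice, and transplanted SMA 1 was the eighth in order. Col14a1, a fibril-associated chain of dense connective tissue, read 144.1 on transplanted SMA 1 and 35.1 to 70.8 elsewhere. Col16a1 read 95.2 on transplanted SMA 1, 84.9 on SMA 1, and 35.4 on transplanted SMA 3. The median deviation of these 4 chains on transplanted SMA 1 was 0.18, against 1.47 for the fibrillar chains; a difference between these classes was not tested.

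All 5 tested laminin chains were highest on transplanted SMA 1, and 4 of them were lowest on SMA 1. Lama2, the alpha chain of muscle and Schwann cell basement membranes whose loss causes a congenital muscular dystrophy, read 18.4, 25.5 and 121.6 in the wild type, 21.8, 87.9 and 153.7 in SMA mice, and 332.6, 45.8 and 75.8 in transplanted mice. Lama4, an alpha chain of vessel walls, read 31.3, 26.9 and 61.5, then 12.4, 39 and 51.3, then 228.9, 30.6 and 43.8. Both alpha chains overlapped across all groups apart from the leading array. Lama5, an alpha chain of many mature basement membranes including those of vessels, read 46, 31.7 and 41.8 in the wild type, 9.5, 17.6 and 46.3 in SMA mice, and 106.7, 59.8 and 80.9 in transplanted mice. Every transplanted array lay above all 6 others, and 2 SMA arrays lay below all 3 wild-type arrays.

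Lamb1, the beta chain found with these alpha chains, read 30, 33.1 and 156.7 in the wild type, 20.3, 166.2 and 143.4 in SMA mice, and 290.1, 88.4 and 58.1 in transplanted mice, so that low and high arrays occurred in every group. Lamc1, the gamma chain shared by most laminins, read 67.1, 67.2 and 75.7 in the wild type, 56.2, 76.2 and 92.6 in SMA mice, and 163.9, 90.6 and 70.6 in transplanted mice. Its groups overlapped, with 1 transplanted array on top. Lamb2, the beta chain of synaptic basement membranes at the neuromuscular junction, was too dim to test and read 16.8 to 30.7, 25.1 to 35.5 and 23.6 to 35.1 in the 3 groups.

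The 22 dim members, 17 collagens and 5 laminins, had signals from 0.3 to 62.8 with a median of 15.1. Of these, 7 were under 20 on every array, and 4 were highest on transplanted SMA 1. They included the cartilage collagens Col2a1 and Col10a1, the kidney and eye basement membrane chains Col4a3 and Col4a4, the junctional collagens Col7a1 and Col17a1, and the epithelial laminins Lama3 and Lamb3. At the border of the filter stood Col11a1 with a mean log2(signal + 16) of 5.65 just inside, and Col26a1 and Col15a1 with 5.57 and 5.55 just outside.

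In SMA against wild type, which asks what the disease genotype changes, 0 of the 24 tested members passed the threshold, an adjusted p of 0.05 by limma with Benjamini-Hochberg adjustment over all probe sets. Of all probe sets, 5 passed (0.0442%). An unadjusted p under 0.05 was reached by 0 members, against 6.04% of all probe sets, and in 0 members did the groups fail to overlap, against 11.4%. The difference was above 0 in 18 of the 24 members, against 51% of all probe sets, and the median log2 difference was 0.22 for members and 0.01 for all probe sets. It was 0.02, with 15 members above 0, when wild type 1 was left out, and was 0.45 without wild type 3.

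The smallest p belonged to Col4a5, with a log2 difference of 0.50 (SE 0.23, adjusted p = 0.837 by limma). Its mean signals were 48.7 ± 6.35 in wild type and 78.5 ± 31.7 in SMA (SD, n = 3). The second, dimmer Col4a5 probe set had means of 32.4 and 34.9. Lama5 had the next smallest p, with a log2 difference of -0.56 (SE 0.31) that became 0.17 without SMA 1 and SMA 2. Col5a3 at 0.38 (SE 0.28) and Col18a1 at 0.48 (SE 0.43) followed. For Col1a2 the difference was -0.01 with an SE of 0.63, and it was 0.42 with array weights and 0.75 without wild type 3. Col3a1 differed by 0.68 (SE 0.75), Col1a1 by 0.23 (SE 0.68), Col4a1 by 0.40 (SE 0.54), Col4a2 by 0.33 (SE 0.41) and Lamc1 by 0.06 (SE 0.26).

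In transplanted SMA against SMA, the comparison of the transplant itself, 0 of 24 members and 0 of all probe sets passed the threshold (0%). An unadjusted p under 0.05 was reached by 1 member, against 4.77% of all probe sets, and 1 member, Lama5, had higher signals on every transplanted array than on every SMA array, against 4.43% of all probe sets. The difference was above 0 in 21 of 24 members, against 50.3%, with a median of 0.39, against 0.00. The count of members above 0 and the median rested on 1 array. Without transplanted SMA 1 the difference was above 0 in 8 of 24 members and the median was -0.13.

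Lama5 differed by 1.36 on the log2(signal + 16) scale (SE 0.31, adjusted p = 0.933 by limma), with mean signals of 24.5 ± 19.3 in SMA mice and 82.5 ± 23.5 in transplanted SMA (SD, n = 3). It ranked 4 by p among all probe sets. The difference was 1.19 without transplanted SMA 1 and 0.63 without SMA 1 and SMA 2, the arrays with muscle transcripts, whose part in it was not tested. Over 24 alternative settings the difference ran from 0.52 to 1.95 and the adjusted p from 0.0748 to 1. A second, dimmer Lama5 probe set read 15.4, 6.2 and 7.9 in the wild type, 18.5, 8.8 and 12.2 in SMA mice, and 5.9, 6.2 and 9.7 in transplanted mice, and so was not higher after transplantation.

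The next smallest p-values belonged to Col6a1, with a log2 difference of 0.80 (SE 0.47), Lama4 with 0.90 (SE 0.55) and Col6a2 with 0.89 (SE 0.57). None had an unadjusted p under 0.05, and without transplanted SMA 1 these differences were 0.12, 0.16 and 0.05. Col3a1 differed by 0.40, Col1a2 by 0.39, Col1a1 by 0.25, Col4a1 by 0.36, Col4a2 by 0.27 and Lamc1 by 0.40. Without that array the differences of Col3a1, Col1a2, Col1a1, Col4a1 and Col4a2 were all below 0.

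In transplanted SMA against wild type, 0 of 24 members and 0 of all probe sets passed the threshold (0%). An unadjusted p under 0.05 was reached by 4 members, against 6.55% of all probe sets. For 3 members, Col5a3, Lama5 and Col4a5, every transplanted array lay above every wild-type array, against 7.11% of all probe sets. In the second, dimmer probe set of each of these 3 genes the transplanted and wild-type arrays overlapped. The difference was above 0 in 22 of 24 members, against 48.5%, with a median of 0.66, against -0.01. Without transplanted SMA 1 it was above 0 in 16 of 24, with a median of 0.16. This comparison shares its arrays with the other two, so the 3 sets of differences are not independent.

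Col5a3 had the smallest p, with a log2 difference of 0.80 (SE 0.28, adjusted p = 0.699 by limma) and mean signals of 33.6 ± 8.20 in wild type and 73.8 ± 36.2 in transplanted SMA (SD, n = 3). Lama5 differed by 0.80 (SE 0.31, adjusted p = 0.711 by limma), Col18a1 by 1.07 (SE 0.43, adjusted p = 0.711) and Col6a1 by 1.05 (SE 0.47, adjusted p = 0.754). Without transplanted SMA 1 the difference was 0.49 for Col5a3, 0.46 for Col18a1 and 0.37 for Col6a1. As the mean of their probe sets Col5a3 differed by 0.31 and Lama5 by 0.33. Col3a1 differed by 1.08 (SE 0.75), Col4a1 by 0.75, Col4a2 by 0.60, Col1a1 by 0.48, Lamc1 by 0.46 and Col1a2 by 0.38.

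**Figure D3:**
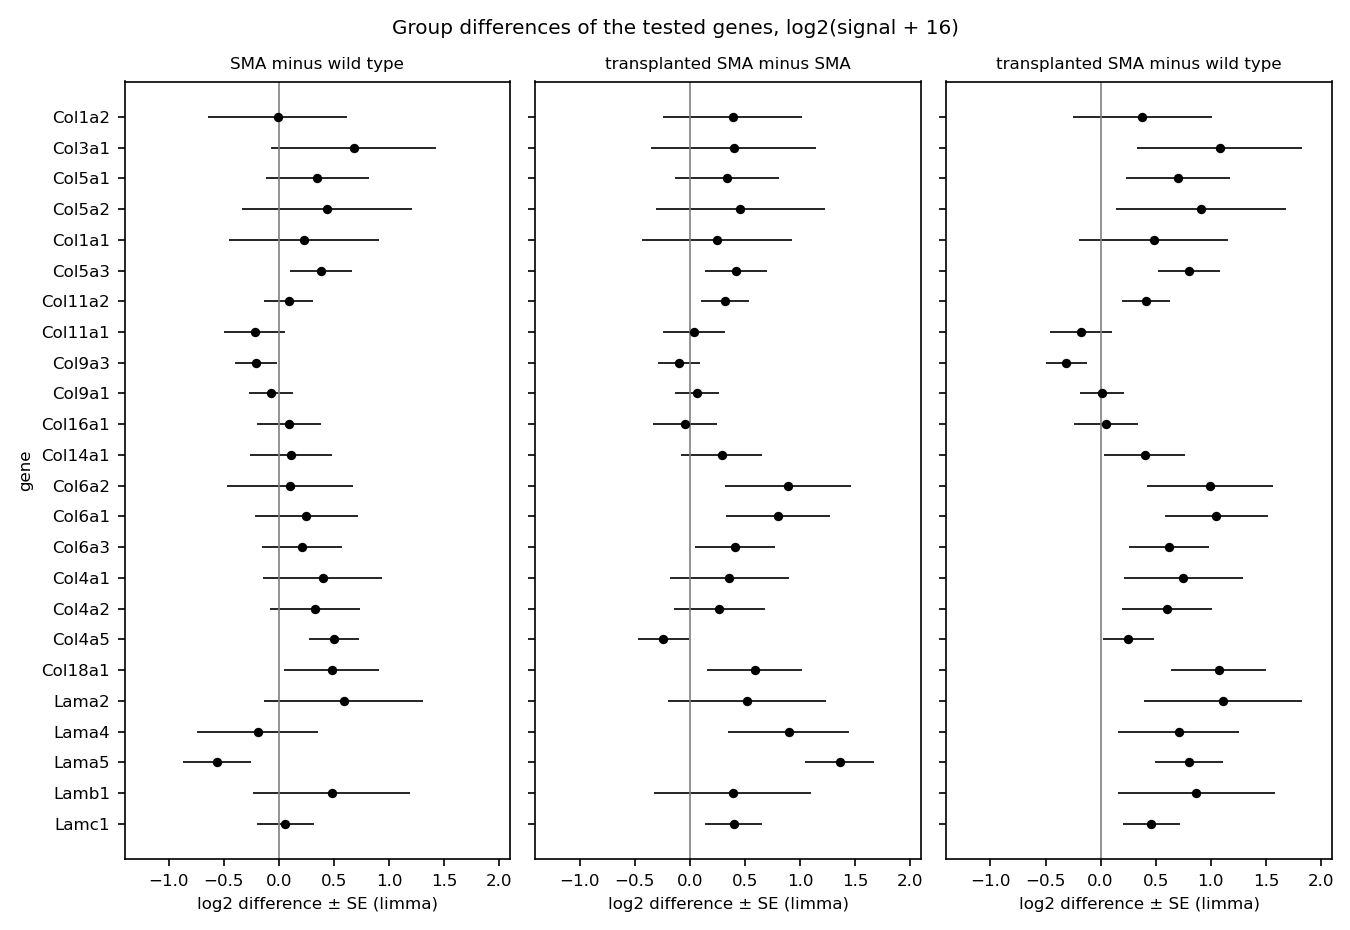
Log2 differences of the 24 tested members in the 3 comparisons, as points with bars of 1 SE on the log2(signal + 16) scale. Medians were 0.22 for SMA minus wild type, 0.39 for transplanted SMA minus SMA and 0.66 for transplanted SMA minus wild type, and 0 members passed an adjusted p of 0.05.

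Some markers of cells known to make these chains were also highest on the leading array, and others were not. Of 14 meningeal and fibroblast markers, 7 were highest on transplanted SMA 1, and their summed signal was 875 to 1725 in the wild type, 1579 to 2871 in SMA mice and 1072 to 2993 in transplanted mice. Of the 12 endothelial markers with a probe set, 8 were highest on that array, with sums of 609 to 1137, 679 to 1733 and 1138 to 2089, and of 12 pericyte and smooth muscle markers 4 were, with sums of 757 to 2076, 729 to 1984 and 1018 to 2324. In each of these lists the highest sum came from transplanted SMA 1. Among the tested markers alone, 4 of 8, 4 of 8 and 2 of 6 were highest on it, against 13.3% of all tested probe sets. Defining markers could be dim even there, and the endothelial adhesion molecule Pecam1 read 31.0 on transplanted SMA 1 and 3.6 to 15.0 elsewhere. Dcn, the small proteoglycan decorin of fibroblasts that is also in the list of matrix partners, read 335.9 there and 55.2 to 213.2 elsewhere. Lum and Ogn, which are in both lists as well, were highest on other arrays. Lum read 173.6 on wild type 3 against 92.5 on transplanted SMA 1, and Ogn 441.9 on SMA 3 against 403.6. Several bright markers of these lists peaked elsewhere. Ptgds and Pdgfra of the meningeal list were highest on SMA 2 (1188.1) and SMA 1 (660.5). Slco1a4 of the endothelial list and Pdgfrb of the pericyte list were highest on SMA 3 (316.4 and 225.5), and the pericyte marker Rgs5 on wild type 3 (874.3). Ptgds and Pdgfra are part of the summed meningeal signal, and how far they mark meningeal cells in these samples was not tested.

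For markers of other cell types, the counts on transplanted SMA 1 stand beside the 13.3% of all tested probe sets that were highest there. These lists are short and some of their genes were too dim to test, so such counts cannot set these cell types apart. No astrocyte, oligodendrocyte or microglia marker was highest on transplanted SMA 1 (6, 4 and 5 markers), and the median deviation of the oligodendrocyte markers there was -0.01. It led for 1 of 11 neuron markers (Isl2) and 1 of 11 muscle markers (Myog, at 16.1). Of the 3 genes with a probe set in the Schwann cell list it led for 1, Egr2, at 278.9 against 8.9 to 97.0 elsewhere. Mal was highest on SMA 3 (4518.5, against 2303.6 on transplanted SMA 1). Its second highest array was transplanted SMA 3, as for the oligodendrocyte markers Mobp and Cnp. Sox10 was highest on wild type 2 (1068.8, against 1066.9 on transplanted SMA 1). How far Mal and Sox10 mark Schwann cells in these samples was not tested. Skeletal muscle markers summed to 143 on transplanted SMA 1 and to 2462 and 3066 on SMA 1 and SMA 2, 2 arrays whose members had median deviations of -0.35 and -0.01. Bone and cartilage markers summed to 148 to 209 on all arrays, and 2 of 7 were bright enough to test. The part of other cell types in the collagen and laminin signals was not tested.

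**Figure D4:**
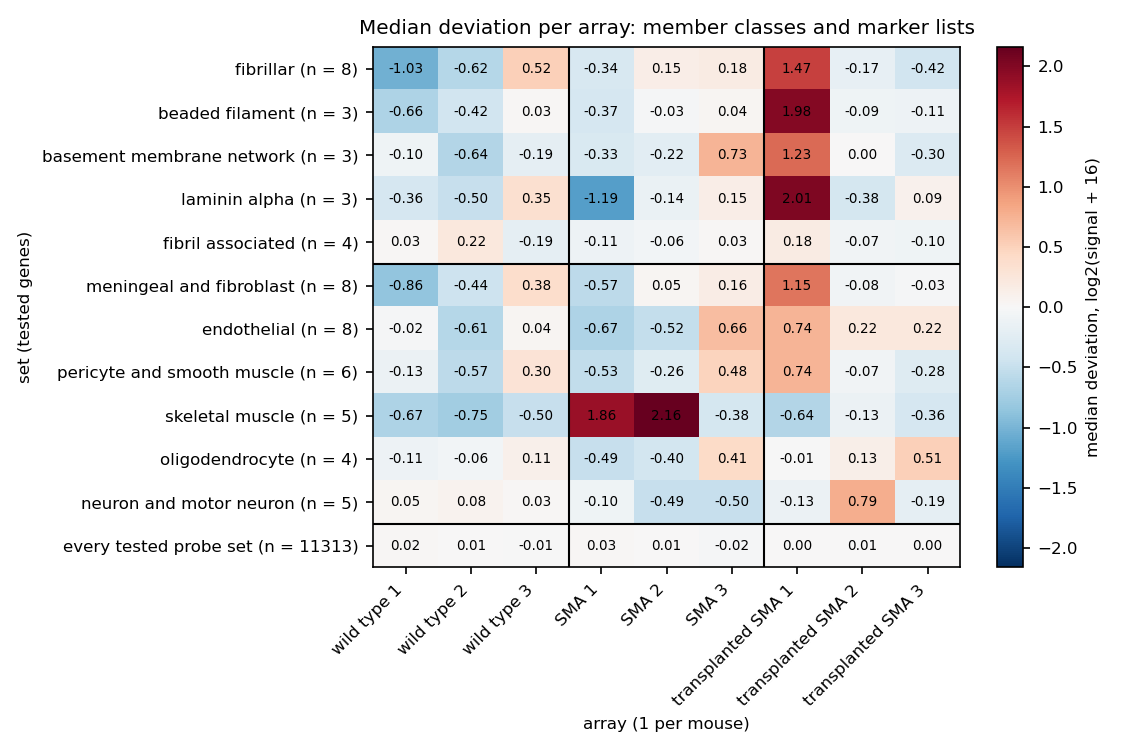
Median deviation of log2(signal + 16) from each gene's mean on the 9 arrays, for member classes and for marker lists of other cell types. On transplanted SMA 1 the fibrillar chains stood at 1.47, the meningeal and fibroblast markers at 1.15, the endothelial markers at 0.74 and the oligodendrocyte markers at -0.01.

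Where a member had more than 1 probe set, the others could be set beside it. For the 18 such tested members there were 21 further probe sets, and 14 had their maximum on the same array as the one used. Of the 10 that were bright enough to test, 9 did so, and the exception was a probe set of Col9a3. The second Lamc1 probe set, 49.9, 92.6 and 105.4 in the wild type, 77.3, 45.2 and 70.6 in SMA mice, and 131.1, 9.7 and 13.5 in transplanted mice, also peaked on transplanted SMA 1. Its other two transplanted arrays were the lowest of the 9, so the 2 probe sets of this gene gave different group means.

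The genes that fold, process, bind and cleave these chains were taken from a list of 83, of which 68 had a probe set and 48 were tested. By limma 0 of 48 passed the threshold in any comparison. In SMA against wild type, 2 had an unadjusted p under 0.05 with a higher and 3 with a lower level, against 2.71% and 3.32% of all probe sets. In transplanted SMA against SMA these were 2 and 0, against 2.32% and 2.46%, and against wild type 3 and 0, against 3.27% and 3.28%. The difference was above 0 in 30, 37 and 40 of 48 genes, against 51%, 50.3% and 48.5% of all probe sets, with medians of 0.06, 0.20 and 0.28. The folding and modification genes went the other way in SMA against wild type, with 2 of 12 above 0 and a median of -0.22. In the other 2 comparisons 9 and 7 of these 12 were above 0, with medians of 0.35 and 0.04. The transplanted arrays differed among themselves here too. On transplanted SMA 1, 2 and 3 the median deviation was 0.81, -0.04 and 0.00 for matrix partners and 1.22, 0.00 and -0.47 for processing and crosslinking genes. For receptors it was 0.53, -0.17 and 0.08, for degradation genes 0.43, 0.10 and -0.12, and for folding genes 0.19, -0.18 and 0.18. The counts of these 48 genes without transplanted SMA 1 were not taken.

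Among receptors, the heparan sulfate proteoglycan Sdc4 read 103.8, 105.4 and 118.7 in the wild type, 271.7, 156.6 and 232.6 in SMA mice, and 191.6, 178 and 213.9 in transplanted mice. Both groups of SMA mice lay wholly above wild type, with log2 differences of 0.89 (adjusted p = 0.408 by limma) and 0.75 (adjusted p = 0.523). Itgb4, the beta chain of a laminin-binding integrin, read 45.5, 62.9 and 62.6, then 14.5, 26.4 and 57.5, then 83.3, 61 and 69.1. It differed by -0.67 in SMA against wild type (adjusted p = 0.807 by limma) and by 0.93 in transplanted SMA against SMA (adjusted p = 0.933), 2 comparisons that share the SMA arrays. Like Lama5, it had its lowest signals on SMA 1 and SMA 2.

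Of the degradation genes, Timp2, an inhibitor of matrix metalloproteinases, read 304.5, 530.7 and 478.8 in the wild type, 853.9, 931.8 and 569.7 in SMA mice, and 818.6, 646.2 and 557.3 in transplanted mice. Both groups of SMA mice were above all wild-type arrays, with log2 differences of 0.83 (adjusted p = 0.599 by limma) and 0.62 (adjusted p = 0.719). Of the folding genes, Serpinh1, the collagen chaperone of the endoplasmic reticulum, read 59.3, 39.5 and 102.9, then 61.6, 59.1 and 214.9, then 210.3, 125.8 and 188. Every transplanted array was above every wild-type array, a log2 difference of 1.24 (SE 0.42, adjusted p = 0.698 by limma). Plod1, a lysyl hydroxylase, and Colgalt1, which adds galactose to collagen hydroxylysine, differed by 0.50 and 0.38 in transplanted SMA against SMA, each with an adjusted p of 0.933 by limma. The list of matrix partners holds nidogens, proteoglycans and other proteins bound to collagen or laminin. In it 12 of 20 genes, dim ones included, were highest on transplanted SMA 1, and in that of folding genes 7 of 15. Among tested genes alone these were 10 of 17 and 5 of 12, against 13.3% of all tested probe sets. For processing and crosslinking genes, receptors and degradation genes they were 3 of 5, 4 of 7 and 2 of 7.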

How the data were processed

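The authors deposited 1 linear intensity for each probe set, computed by MAS5 per the submitters' processing notes. No source used here gives the MAS5 version, and detection calls were not used here. In the deposited values the mean after trimming 2% at each end was 100 on all 9 arrays, so no further scaling was applied. The RNA was amplified in 2 rounds, per the labels' protocols, and such amplification is known to favour the 3' end of transcripts.

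Of 22690 probe sets, 64 controls were left out, and 20380 named 1 gene in the platform annotation, 691 named several and 1555 were absent from it. Signals had 16 added and were taken to log2, a scale that compresses the changes of dim genes. For testing, the brighter 50% (11313 probe sets, 7254 named genes, lowest mean 5.63) were kept. A single model was fitted (lmFit, then trended eBayes; limma 3.58.1, R 4.3.3) with 6 residual and 4.93 prior degrees of freedom, and the procedure was tested on simulated data. Tests were two-sided, with Benjamini-Hochberg adjustment within each comparison and a threshold of 0.05. With 3 arrays per group the number of arrays limits the precision.

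Named members were a fixed set (Col1a1, Col1a2, Col3a1, Col4a1, Col4a2, Lama5, Lamb2, Lamc1) and, per comparison, those with an unadjusted p under 0.05, filled to 4 by p. Of the related genes, the 3 with the smallest p were named. The members and all lists were chosen with earlier results of these data known. The marker genes of other cell types were named after their values were seen. Promoters came from RefSeq on GRCm38.p6.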

Additional observations from a re-analysis of the deposited data

How the results depend on the processing

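In 25 alternative settings, 1 of them (leaving out wild type 3 and transplanted SMA 1 together) chosen after seeing the data, 0 members passed the threshold in any comparison. In SMA minus wild type, 5 probe sets passed it in the main fit. There were 2 for the brightest 25% and 1 without probe sets named _s_at, _x_at or _a_at. Leaving out each array in turn gave 2 to 13, with 13 without SMA 3. In transplanted SMA minus SMA there were 0 to 4, with 4 without SMA 3. In transplanted SMA minus wild type there were 2 with a pseudocount of 1, 5 at an adjusted p of 0.10, 8 each with array weights, with only the 6 arrays compared and without SMA 1 and SMA 2, and 0 to 7 leaving out each array, with 7 without SMA 3. The cause was not tested. Leaving out each array in turn, the median of members ran from 0.02 to 0.45 in SMA minus wild type, -0.13 to 0.68 in transplanted SMA minus SMA, and 0.16 to 0.92 in transplanted SMA minus wild type.

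Single genes changed sign as follows. In SMA minus wild type, Col1a2 (-0.01) was 0.03 by quantile normalisation, 0.42 with array weights and 0.17 as the mean of its probe sets. It was 0.34 without probe sets named _s_at, _x_at or _a_at, where its other probe set was used instead. It was 0.27 without SMA 1 and SMA 2, and 0.75 without wild type 3 and transplanted SMA 1. Leaving out each array, Col1a2 ran from -0.44 to 0.75, Col1a1 from -0.19 to 0.90, Col4a1 from -0.13 to 0.82, Col4a2 from -0.01 to 0.50 and Lamc1 from -0.07 to 0.22. Lama5 was 0.17 without SMA 1 and SMA 2. As the mean of its probe sets Lamc1 was -0.10, -0.16 in transplanted SMA minus SMA and -0.26 in transplanted SMA minus wild type. In transplanted SMA minus SMA, leaving out each array gave -0.54 to 0.92 for Col1a1, -0.24 to 0.71 for Col1a2 and -0.51 to 0.88 for Col3a1. For Col4a1 it gave -0.07 to 0.88 and for Col4a2 -0.24 to 0.61. The low end of each of these ranges came without transplanted SMA 1. Leaving out wild type 3 as well repeated those values, since wild type 3 has no part in this difference. Without SMA 1 and SMA 2, Col4a1 was -0.69 and Col4a2 -0.42. In transplanted SMA minus wild type, Col1a1 ran from -0.31 to 1.15 and Col1a2 from -0.24 to 1.14.

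No source used here says whether same-numbered arrays share more than the number. Their deviations from the group means correlated at -0.08 to 0.45 over 9 pairs, 6 of them above 0.1. For arrays of different numbers in different groups this was -0.47 to 0.33 over 18 pairs, 4 of them above 0.1. Whether a shared batch lies behind the number was not tested. With the number as a replicate block the medians of members were 0.22, 0.39 and 0.66, 0 members passed, and 5, 0 and 0 probe sets did.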
